A study of Mus musculus with 10 samples.

Results

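The 7 milk protein genes of the mouse were followed across sorted tuft cells and intestinal epithelium. They are the 5 casein genes Csn1s1, Csn1s2a, Csn1s2b, Csn2 and Csn3 on chromosome 5, Wap on chromosome 11 and Lalba on chromosome 15. They were taken by symbol from 43432 gene identifiers, with symbols from the GENCODE M21 annotation of GRCm38. They were selected on their counts over these 3 groups, known from earlier work on the same data, so those levels are given here as a description and without a test.

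The libraries were RNA-seq of thymic tuft cells (n = 4), small intestinal (SI) tuft cells (n = 3) and SI epithelium (n = 3). All came from naive male mice of 12 weeks of the strain C57BL6.Il25(Flare25/Flare25), 1 mouse per library. Every group therefore carried Flare25 on both alleles, a fluorescent reporter of Il25, the cytokine gene by which tuft cells are recognised. Live CD45-negative, EPCAM-positive cells were sorted as reporter-positive tuft cells or, for SI epithelium, as reporter-negative cells. Thymic libraries held 1350 to 1900 cells, SI tuft libraries 35000 to 36000 and SI epithelium libraries 52000 to 57000. Thymic cells were released by enzymes and SI cells by DTT and EDTA, so organ, release and cell number cannot be told apart.

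Caseins are the main proteins of milk and are secreted by the lactating mammary gland. The alpha and beta caseins carry phosphate that binds calcium, and kappa casein, the product of Csn3, stabilises the surface of the casein micelle. Wap encodes whey acidic protein, and Lalba encodes alpha-lactalbumin, the subunit that makes galactosyltransferase produce lactose. In the mammary gland these genes are switched on by prolactin through its receptor and STAT5, together with glucocorticoid. In the thymus, medullary epithelial cells transcribe many genes of other organs, called tissue-restricted antigens, which are shown to developing T cells. Aire and Fezf2 are regulators of that process, and caseins are among the antigens known from mouse medullary epithelium.

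Promoters of 5 of the 7 genes were in the RefSeq promoter table (GRCm38.p6), which runs from 250 bases before to 50 after the start site. Those of the 3 caseins found there are shown because each holds 1 match to TTCNNNGAA, the palindrome recognised by STAT factors. The match is in capitals, and the sequences are printed 5′ to 3′ on the strand of the gene up to 30 bases after the RefSeq start site.

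Csn2, chr5:87699396-87699675, minus strand: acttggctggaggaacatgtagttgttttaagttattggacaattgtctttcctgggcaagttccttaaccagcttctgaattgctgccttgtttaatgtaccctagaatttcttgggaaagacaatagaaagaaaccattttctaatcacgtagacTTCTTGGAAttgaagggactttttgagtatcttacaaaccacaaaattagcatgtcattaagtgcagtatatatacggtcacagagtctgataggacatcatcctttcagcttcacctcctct
Csn1s1, chr5:87665958-87666237, plus strand: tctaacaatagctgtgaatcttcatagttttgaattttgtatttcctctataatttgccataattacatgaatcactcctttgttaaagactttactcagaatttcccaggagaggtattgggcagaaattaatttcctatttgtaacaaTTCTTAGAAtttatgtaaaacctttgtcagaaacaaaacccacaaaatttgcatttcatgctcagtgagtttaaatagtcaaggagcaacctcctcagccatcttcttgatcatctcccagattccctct
Csn1s2a, chr5:87774200-87774479, plus strand: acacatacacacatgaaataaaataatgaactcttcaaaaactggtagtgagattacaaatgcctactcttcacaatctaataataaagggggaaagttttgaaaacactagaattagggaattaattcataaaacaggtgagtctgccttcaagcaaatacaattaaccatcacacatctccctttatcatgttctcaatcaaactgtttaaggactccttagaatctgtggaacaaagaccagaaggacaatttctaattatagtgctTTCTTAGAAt

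The match began at position -93 in Csn2, at -100 in Csn1s1 and at 21 in Csn1s2a, counted from the RefSeq start site. Annotations place these starts differently. From the outermost GENCODE start the match lay at -97 in Csn1s2a, at -100 in Csn1s1 and at 113 in Csn2. The Csn1s1 and Csn1s2a matches have the same letters, TTCTTAGAA, and the Csn2 match reads TTCTTGGAA. No match was found in the windows of Wap and Lalba. Of 32851 promoters of this length 8.30% held at least 1 match, searched on both strands, on which the motif reads alike. The letters TATAAA were found on either strand in 0 of the 5 windows and in 13.6% of all. These are matches of letters, and no binding was measured.

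Csn2, the beta casein gene, was abundant in every thymic tuft library and near absent elsewhere. Thymic tuft libraries 1 to 4 held 24096, 20387, 34850 and 19546 counts of Csn2, SI tuft libraries held 0, 1 and 0, and SI epithelium libraries held 172, 92 and 114. As CPM (counts per 1e6 library counts) with library sizes scaled by the trimmed mean of M-values (TMM), these were 396, 384, 504 and 372 CPM in thymic tuft cells, against 0, 0.0272 and 0 CPM in SI tuft cells. The SI epithelium libraries had 3.24, 1.95 and 1.73 CPM. All thymic libraries lay far above all intestinal ones, and the thymic libraries stayed close to each other.

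The mean level of Csn2 was 414 ± 60.6 CPM in thymic tuft cells (SD, n = 4), against 0.00907 ± 0.0157 CPM in SI tuft cells and 2.31 ± 0.815 CPM in SI epithelium (SD, n = 3 each). The thymic level was 185 times that of SI epithelium (exact 95% counting interval 167 to 205). Against SI tuft cells, where a single count was found, the ratio was 48574 (counting interval 8718 to 1.92e+06). Per kilobase of transcript the thymic level was 311 CPM, which put Csn2 at rank 63 of 21551 protein-coding genes in these cells. These intervals cover counting error only.

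Csn1s1, the gene of an alpha casein, lay next to Csn2 on the chromosome but at a far lower level. It had 296, 544, 118 and 333 counts in thymic tuft libraries 1 to 4, against 0 in each SI tuft library and 1, 4 and 4 in SI epithelium. In CPM the thymic libraries had 4.87, 10.3, 1.71 and 6.33, with a mean of 5.79 ± 3.55 (SD, n = 4). All thymic libraries held the transcript, with library 2 highest and library 3, where Csn2 was highest, lowest. Thymic tuft cells had at least 211-fold more Csn1s1 than SI tuft cells, taking 3 counts over the group as the limit that a count of 0 allows. They had 101 times as much as SI epithelium (counting interval 53.1 to 222), where the mean was 0.0548 ± 0.0334 CPM (SD, n = 3).

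Csn1s2a, the gene of another calcium-binding casein, had 208, 122, 312 and 780 counts in thymic tuft libraries 1 to 4, against 0 in each SI tuft library and 0, 0 and 1 in SI epithelium. Its thymic level was 3.42, 2.30, 4.51 and 14.8 CPM, with a mean of 6.26 ± 5.78 (SD, n = 4). Library 4 stood highest, and no thymic library overlapped with an intestinal one. Without library 4 the thymic mean was 3.32 CPM. The level was at least 233-fold higher in thymic than in SI tuft cells, and 1003 times that of SI epithelium (counting interval 180 to 39653), which rests on a single count. Per kilobase, Csn1s2a stood at 6.81 CPM and Csn1s1 at 4.10 CPM, ranks 6441 and 8307 in thymic tuft cells.

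Csn3, the kappa casein gene, was uneven. It had 20, 635, 113 and 0 counts in thymic tuft libraries 1 to 4, against 0 in each SI tuft library and 1, 3 and 0 in SI epithelium. In thymic libraries this was 0.329, 12.0, 1.63 and 0 CPM. Library 2 held most of the transcript and library 4 none, so the groups overlapped. The pooled thymic level was at least 126-fold that of SI tuft cells and 135 times that of SI epithelium (counting interval 52.7 to 498). Without library 2 the thymic mean was 0.636 CPM, against 3.48 ± 5.70 CPM with it (SD, n = 4). An antisense gene, 1700066N21Rik, spans Csn3, and it had 51, 113, 30 and 46 counts in thymic tuft libraries. The library kit marks no strand, so reads of the overlapping genes cannot be told apart.

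Csn1s2b, the remaining casein gene, had 0, 1, 8 and 28 counts in thymic tuft libraries 1 to 4 and 0 in every intestinal library. Wap had 0, 0, 0 and 49 counts in thymic tuft libraries, against 0 in each SI tuft library and 8, 0 and 0 in SI epithelium. Lalba was at 0 in all 10 libraries, which allows up to 0.0817 CPM in the library of the smallest TMM-scaled size. Thymic library 4 thus held the most Csn1s2b and all thymic Wap, whereas a single SI epithelium library held the other Wap counts. The thymic mean of Csn1s2b was 0.0436 CPM without library 4, against 0.167 ± 0.249 CPM with it (SD, n = 4), and that of Wap was 0 CPM, against 0.233 ± 0.466 CPM. Pooled over libraries, thymic tuft cells had at least 6.06-fold more Csn1s2b than SI tuft cells and at least 8.70-fold more than SI epithelium. For Wap the values were at least 8.02-fold over SI tuft cells and 4.32 times SI epithelium (counting interval 2.03 to 10.6).

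**Figure D1:**
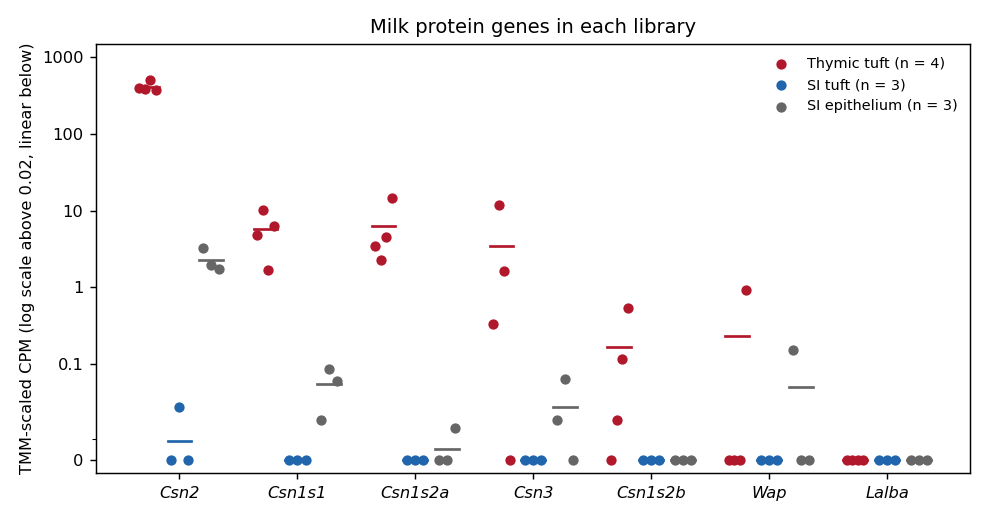
Level of each of the 7 milk protein genes in each library, in TMM-scaled CPM on an axis that is logarithmic above 0.02 and linear below; points are libraries and bars are group means. Csn2 lies between 372 and 504 CPM in all 4 thymic tuft libraries, Csn1s1 and Csn1s2a lie between 1.71 and 14.8 CPM, and Lalba is at 0 in all 10 libraries.

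The plot of levels by library sets the order of the genes in thymic tuft cells. By CPM per kilobase the order was Csn2, Csn1s2a, Csn1s1, Csn3, Wap, Csn1s2b and Lalba. Csn2 stood apart from all others in every library. The library ranges of Csn1s2a, Csn1s1 and Csn3 overlapped, as did those of Csn3, Wap and Csn1s2b. Summed over the 7 genes, thymic tuft libraries 1 to 4 had 405, 409, 512 and 394 CPM, of which Csn2 gave 97.9%, 94.0%, 98.4% and 94.3%. The sums were 0, 0.0272 and 0 CPM in SI tuft libraries and 3.43, 2.10 and 1.80 CPM in SI epithelium.

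In thymic tuft against SI tuft cells 26.3% of the 19281 genes that passed the count filter had higher, non-overlapping thymic libraries, and against SI epithelium 28.1% did. Of the 7 milk protein genes 4 passed that filter (Csn2, Csn1s1, Csn1s2a and Csn3), and Csn2, Csn1s1 and Csn1s2a did not overlap in either comparison. The genes were chosen for this pattern, so nothing is read from that count. Tuft cell markers, 12 genes such as Pou2f3 and Trpm5, summed to 5786 to 6720 CPM in thymic tuft libraries, 26804 to 36475 CPM in SI tuft libraries and 231 to 465 CPM in SI epithelium. All 12 were called higher in thymic tuft cells than in SI epithelium by edgeR's quasi-likelihood test at an adjusted p below 0.05, where 28.6% of all genes were. These groups were sorted apart by the Il25 reporter and Il25 is on the list, so nothing is read from that count. Against SI tuft cells 0 of the 12 were called higher and 11 lower (median log2 fold change -1.47), where 28.5% and 23.1% of all genes were. In bulk samples fewer cells with a transcript and less transcript per cell cannot be told apart.

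Markers of some other cells were also higher in thymic tuft libraries than in intestinal ones. Those of T cells and red blood cells overlapped with SI tuft libraries. Markers of medullary thymic epithelium (10 genes, among them Aire, Fezf2, Krt5 and Krt14) summed to 1807 to 1977 CPM in thymic tuft libraries, against 67.7 to 90.1 CPM in SI tuft cells and 279 to 641 CPM in SI epithelium. Of the 9 tested, 9 were higher in thymic than in SI tuft cells and 8 were higher than in SI epithelium. Over all genes 28.5% and 28.6% were. Of the 9, 3 were at 0 in SI tuft cells and could not be called lower there. Fezf2, Aire and Krt5 had 5, 18 and 18 counts over the SI tuft libraries, which left little room for a lower thymic level. The counts are therefore not read as an excess over all genes. B cell markers summed to 89.2 to 121 CPM in thymic tuft libraries, against 3.95 to 7.79 CPM in SI tuft cells and 1.70 to 3.93 CPM in SI epithelium. Fibroblast and endothelial markers summed to 20.3 to 134 CPM in thymic tuft libraries, against 1.39 to 2.61 CPM in SI tuft cells and 2.86 to 3.25 CPM in SI epithelium. T cell markers summed to 13.3 to 42.1 CPM in thymic tuft cells, 24.6 to 35.2 CPM in SI tuft cells and 2.80 to 6.24 CPM in SI epithelium. Red blood cell markers summed to 2.11 to 4.18 CPM in thymic tuft cells, 4.01 to 12.0 CPM in SI tuft cells and 0.0757 to 4.18 CPM in SI epithelium. The part of these cells in the casein counts was not tested.

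Among the thymic libraries the milk protein genes differed in how evenly they were spread. The library with the most Csn2, library 3, held 30.4% of its summed CPM, where an equal split gives 25%. The coefficient of variation of Csn2 was 14.6%, and 489 protein-coding genes within 2-fold of its level had a median of 13.4% (interquartile range 9.65% to 18.5%). For Csn1s1 the highest library held 44.3%, for Csn1s2a 59.2%, for Csn1s2b 79.8%, for Csn3 85.9% and for Wap 100%. Their highest libraries were library 2 for Csn1s1 and Csn3 and library 4 for Csn1s2a, Csn1s2b and Wap.

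A single thymic library held over 50% of the CPM of 4 of the 6 milk protein genes with at least 15 thymic counts (Csn1s2a, Csn1s2b, Csn3 and Wap). Over all protein-coding genes with that many counts, 26.3% of 16964 did. This share depended on level: it was 77.6% of 2472 genes at 0.1 to 1 CPM, 36.4% of 5246 genes at 1 to 10 CPM and 0.265% of 1509 genes at 100 to 1000 CPM. The coefficient of variation of Csn3 was 164%, against a median of 66.0% among genes within 2-fold of its level, and that of Csn1s2a was 92.3% against 52.7%. That of Csn1s1 was 61.3% against 54.9%. Among 35 other tissue-restricted antigen genes with enough counts, such as insulin and thyroglobulin, 18 had over 50% in a single library. Among the 12 tuft markers and the 12 regulators of tissue-restricted antigens, 0 did. Thymic libraries held 1350 to 1900 cells each, and whether that number bears on the spread was not tested.

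**Figure D2:**
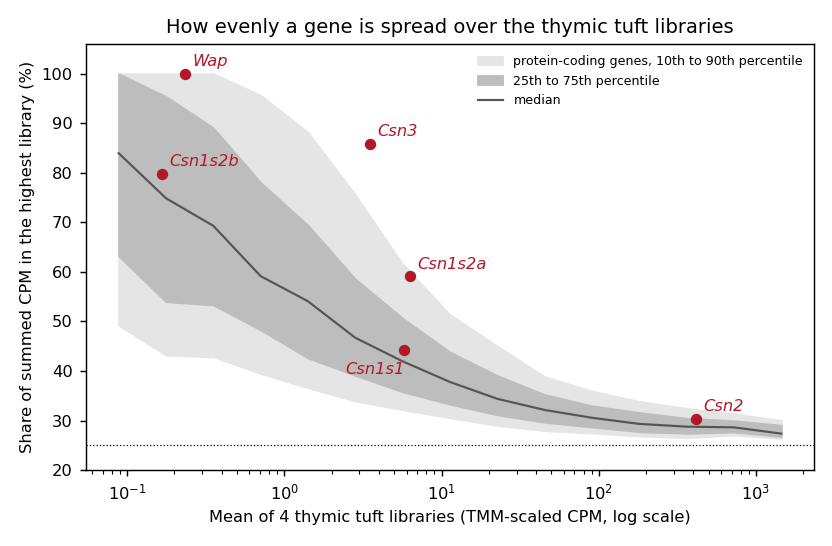
Share of summed thymic CPM held by the highest of the 4 thymic tuft libraries (%) against mean thymic CPM on a log axis; grey bands are protein-coding genes in bins of level (10th to 90th and 25th to 75th percentile), the line is their median, and the dotted line marks an equal split. Csn2 (30.4%) lies within the middle band, whereas Csn3 (85.9%) lies above the outer band for its level.

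The 5 casein genes lie within 266.5 kb of chromosome 5 (GRCm38, 87666208 to 87932665). Csn1s1 (87666208 to 87682578) and Csn2 (87692624 to 87699630, minus strand) stand side by side. Csn1s2a (87774567 to 87788797), Csn1s2b (87808082 to 87824426) and Csn3 (87925579 to 87932665) follow. Within 300 kb on either side lie 14 other protein-coding genes, of which 6 had 0 counts in all 10 libraries. The neighbours with thymic counts included Sult1b1 and Sult1d1, sulfotransferase genes, which ran the other way from the caseins.

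Sult1b1 had 87, 78, 398 and 29 counts in thymic tuft libraries, with a mean of 2.30 ± 2.34 CPM (SD, n = 4), against 161 ± 46.2 CPM in SI tuft cells and 111 ± 9.82 CPM in SI epithelium (SD, n = 3 each). It was lower in thymic than in SI tuft cells (log2 fold change -6.11, SE 0.63, edgeR adjusted p = 7.13e-06) and than in SI epithelium (-5.58, adjusted p = 1.27e-05). Sult1d1 averaged 2.24 ± 1.30 CPM in thymic tuft cells, 74.9 ± 14.8 CPM in SI tuft cells and 78.6 ± 20.0 CPM in SI epithelium. It too was lower in thymic tuft cells, by a log2 fold change of -5.06 against SI tuft cells (adjusted p = 1.15e-06) and -5.13 against SI epithelium (adjusted p = 1.05e-06). No thymic library overlapped with an intestinal one for either gene.

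Between Csn1s2b and Csn3 lie Prr27 and Odam. Odam encodes an ameloblast protein of the same secretory calcium-binding phosphoprotein family as the caseins. Odam had 1, 24, 1 and 3 counts in thymic tuft libraries and 0 in all intestinal ones. Prr27 had 0, 7, 0 and 0 counts in thymic tuft libraries and 0 elsewhere. Csn3, Odam and Prr27 were thus all highest in thymic library 2, and the adjacent Csn1s2a and Csn1s2b were both highest in thymic library 4. The adjacent Csn1s1 and Csn2 were highest in different libraries, 2 and 3. Odam and Prr27 had few counts, and whether neighbours share their highest library more often than other genes was not tested. Smr3a, a submandibular gland protein gene beyond Csn3, had 53, 0, 39 and 0 thymic counts, and the antisense gene BC051076 had 116, 43, 0 and 0. Sult1e1, the oestrogen sulfotransferase gene before Csn1s1, had 10, 56, 0 and 0 counts in thymic tuft libraries, against 5, 0 and 0 in SI tuft libraries and 0 in SI epithelium.

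**Figure D3:**
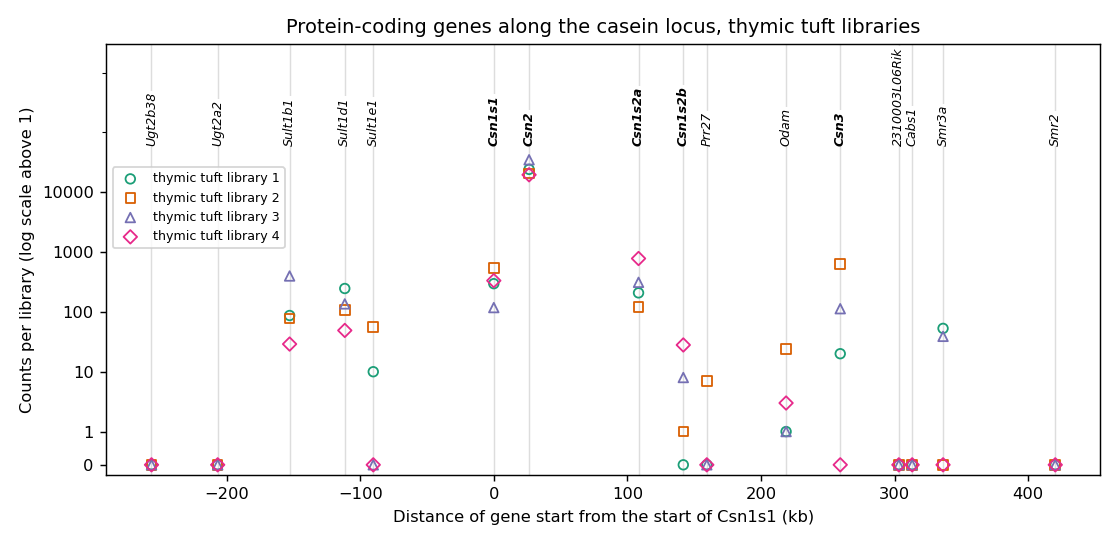
Counts in each of the 4 thymic tuft libraries (axis logarithmic above 1) of 16 protein-coding genes along the casein locus, by distance in kb of their lower end from the lower end of Csn1s1; casein genes are in bold, and 3 further genes at 0 in all libraries are not drawn. Csn2 counts exceed those of every neighbour in each library, and among the caseins the highest library is library 2 at Csn1s1 and Csn3, library 3 at Csn2 and library 4 at Csn1s2a and Csn1s2b.

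The Csn2 counts of SI epithelium were set beside those of particular thymic libraries. Over 281 other genes with at least 2000 thymic counts and at most 2 SI tuft counts, SI epithelium libraries 1, 2 and 3 tracked thymic libraries 3, 2 and 1. Among those with 500 or more counts in the paired thymic library, the median ratio of SI epithelium to thymic counts was 0.569%, 0.585% and 0.583%. The interquartile ranges were 0.404% to 0.826%, 0.430% to 0.851% and 0.424% to 0.785%. Csn2 in SI epithelium libraries 1 to 3 stood at 0.494%, 0.451% and 0.473% of its paired thymic library, inside that range in each. The observed 172, 92 and 114 counts compare with 198, 119 and 141 counts at the median share (exact 95% Poisson intervals of the observed counts 147 to 200, 74.2 to 113 and 94.0 to 137). The first count at the median share lies within its interval, and the other two lie above theirs.

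Csn1s1 had 1, 4 and 4 counts in SI epithelium libraries 1 to 3, where the median share of the paired thymic library gives 0.671, 3.18 and 1.73. Csn3 had 1, 3 and 0 counts, where it gives 0.643, 3.71 and 0.117. Csn1s2a had 0, 0 and 1 counts, where it gives 1.78, 0.713 and 1.21. The 8 Wap counts of SI epithelium library 1 had no such counterpart, since thymic library 3 held 0 Wap counts. With that share subtracted, the mean Csn2 level of SI epithelium was 0 CPM, against 2.31 CPM as deposited. In the other direction, thymic libraries 3, 2 and 1 held 0.918%, 0.959% and 0.860% of the counts of their paired SI epithelium library, as medians over 11 genes. These genes had at least 20000 SI epithelium counts and were chosen for SI tuft counts below 3% of those. Their counts in thymic library 4 were below 0.02% by the same choice, so nothing is read from its absence here. Fitted in the same way as the pairs, SI tuft libraries stood at most at 0.00680% of any thymic library. The 281 genes were chosen for at most 2 SI tuft counts, so that low share was set by the choice and nothing is read from it. How the counts came to stand in these proportions was not tested. All ratios and fold changes against SI epithelium, before and after this paragraph, keep these counts, and those of genes high in thymic tuft cells depend on whether they are kept. Thymic levels of genes high in SI epithelium, among them Sult1b1, Sult1d1 and Apob, likewise keep the counts of the other direction in thymic libraries 1 to 3. With the share subtracted the SI epithelium mean was 0 CPM for Wfdc18, Fezf2 and Krt5, 0.00626 CPM for Aire and 0.0699 CPM for Lpo, where the deposited counts gave 2.70, 1.54, 3.26, 1.46 and 0.882 CPM.

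**Figure D4:**
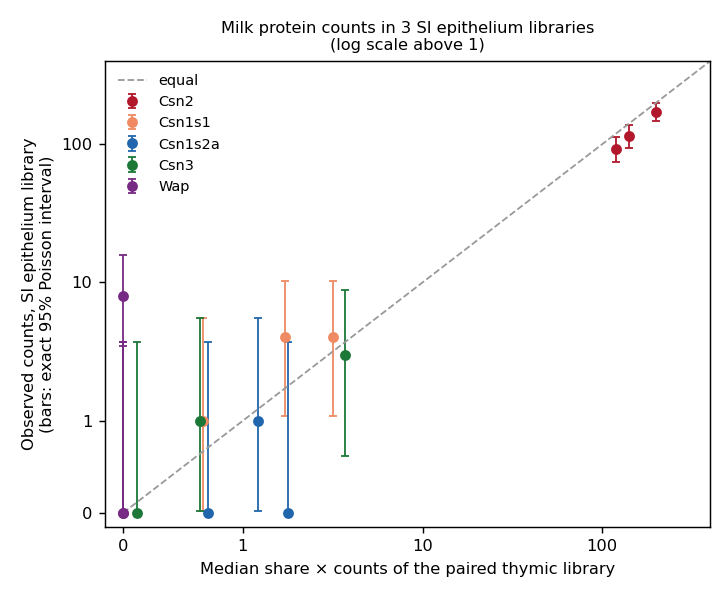
Observed counts of 5 milk protein genes in each SI epithelium library (bars are exact 95% Poisson intervals) against the median share times the counts of the paired thymic library, both axes logarithmic above 1; the dashed line marks equality. Csn2 lies just under the line in all 3 libraries, and the 8 Wap counts of SI epithelium library 1 stand at 0 on the horizontal axis.

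The pattern of Csn2 over the 10 libraries was most like that of Krtdap (Pearson's r = 0.999 on log2 CPM), Alox12e (0.998) and Spink5 (0.998), among 10749 genes of at least 10 CPM in a group. Krtdap, a keratinocyte differentiation gene, averaged 306 ± 48.7 CPM in thymic tuft cells, 0 in SI tuft cells and 1.61 ± 0.487 CPM in SI epithelium. Spink5, an epidermal protease inhibitor gene, averaged 451 ± 64.7 CPM in thymic tuft cells, 0.00810 ± 0.0140 CPM in SI tuft cells and 2.63 ± 0.815 CPM in SI epithelium. Alox12e, an epidermal lipoxygenase gene, averaged 224 ± 49.1 CPM in thymic tuft cells. A correlation above 0.95 was found for 611 genes, or 5.68%. The libraries share their group differences and the proportion between SI epithelium and thymic counts, so these values describe likeness over the groups.

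Other genes of milk and of the milk fat globule were higher in thymic tuft cells in part. Of 19 tested, 11 rose and 5 fell in thymic against SI tuft cells, with a median log2 fold change of 4.39. Over all genes 28.5% rose and 23.1% fell, with a median of 0.12. Of the 19, 3 were at 0 in SI tuft cells and could not be called lower there. Wfdc18, Pthlh, Lpo and Cel had 3, 4, 10 and 14 counts over the SI tuft libraries, which left little room for a lower thymic level. The counts are therefore not read as an excess over all genes. Against SI epithelium 12 rose and 4 fell, with a median of 4.14, where 28.6% of all genes rose and 22.3% fell, with a median of 0.15. With DESeq2 size factors in place of TMM the medians of all genes moved up by 0.24 and 0.23, and the list medians moved with them.

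Wfdc18, a secreted protein gene with the same kind of domain as Wap, had 301, 486, 593 and 406 CPM in thymic tuft libraries 1 to 4. Its mean was 447 ± 124 CPM there (SD, n = 4), against 0.0267 ± 0.0264 CPM in SI tuft cells and 2.70 ± 1.11 CPM in SI epithelium (SD, n = 3 each). The log2 fold changes were 13.94 (SE 0.62, adjusted p = 1.14e-08) against SI tuft cells and 7.38 (SE 0.42, adjusted p = 6.61e-08) against SI epithelium. Like Csn2, it was above 300 CPM in all 4 thymic libraries and near 0 in SI tuft cells.

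Lpo, the lactoperoxidase gene of milk and saliva, averaged 157 ± 59.6 CPM in thymic tuft cells, against 0.0834 ± 0.0762 CPM in SI tuft cells and 0.882 ± 0.271 CPM in SI epithelium. It rose against both (adjusted p = 4.46e-08 and 1.31e-07). Saa3, an acute-phase protein gene also expressed in mammary tissue, averaged 56.0 ± 19.7 CPM in thymic tuft cells and was at 0 in SI tuft cells, a difference of at least 2192-fold. Muc15, a mucin gene of the milk fat globule membrane, averaged 40.4 ± 13.7 CPM in thymic tuft cells and was also at 0 in SI tuft cells, at least 1609-fold lower.

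Other genes of the milk fat globule and of antibody transport differed in direction. Xdh, whose enzyme xanthine oxidoreductase also coats milk fat globules, fell to 53.9 ± 6.03 CPM in thymic tuft cells, against 457 ± 79.6 CPM in SI tuft cells (adjusted p = 2.63e-08) and 345 ± 15.7 CPM in SI epithelium (adjusted p = 6.60e-08). Pigr, which carries immunoglobulin A into milk and gut secretions, averaged 126 ± 36.8 CPM in thymic tuft cells and fell against both intestinal groups (log2 fold change -4.06, adjusted p = 6.53e-08, and -4.45, adjusted p = 3.97e-08). Btn1a1, butyrophilin of the fat globule membrane, had 0.0493, 0.0754, 4.62 and 0.0380 CPM in thymic tuft libraries 1 to 4 and did not pass the count filter. Only library 3 held more than trace amounts of it. Mfge8 was higher in thymic than in SI tuft cells (log2 fold change 1.67, adjusted p = 0.00858), with 20.0 ± 10.2 against 6.29 ± 3.16 CPM, and was not called against SI epithelium, at 18.9 ± 2.90 CPM (adjusted p = 0.886). Folr1, a folate-binding protein gene, fell to 8.16 ± 3.10 CPM in thymic tuft cells, against 268 ± 32.3 CPM in SI tuft cells (adjusted p = 7.93e-07), and rose against SI epithelium, at 2.11 ± 1.08 CPM (log2 fold change 1.94, adjusted p = 0.00145).

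Relatives of Wap and of the caseins were examined next. Of 12 tested genes of the WAP-domain family, 8 rose and 1 fell in thymic against SI tuft cells (median log2 fold change 6.25), and 7 rose and 2 fell against SI epithelium (median 4.80). Over all genes 28.5% rose and 23.1% fell in the first comparison and 28.6% and 22.3% in the second. In the first comparison 4 of the 12 had a group at 0, so they could differ in 1 direction only. Wfdc18, Wfdc17 and Wfdc13 had 3, 4 and 6 counts over the SI tuft libraries, which left little room for a lower thymic level. The counts are therefore not read as an excess over all genes. Wfdc18 and Wfdc3 are also on the list of milk and milk fat globule genes. Wfdc2 averaged 119 ± 35.0 CPM in thymic tuft cells, 1.47 ± 1.19 CPM in SI tuft cells and 1.35 ± 0.283 CPM in SI epithelium. Wfdc17 averaged 58.4 ± 23.2 CPM in thymic tuft cells, against 0.0331 ± 0.0369 CPM in SI tuft cells and 0.368 ± 0.128 CPM in SI epithelium. Both rose against both intestinal groups, with adjusted p values of 1.90e-07 to 7.14e-06. Wfdc3 had 0, 0.113, 0.0144 and 23.0 CPM in thymic tuft libraries and was not called (adjusted p = 0.144 against SI tuft cells). As with Wap, nearly all of Wfdc3 lay in thymic library 4.

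The secretory calcium-binding phosphoprotein family, which holds the caseins and the enamel and bone matrix proteins, had 12 other genes in the files. Of these 3 passed the filter (Amelx, Spp1 and Sparcl1), and all 3 rose against SI tuft cells and against SI epithelium. Over all genes 28.5% and 28.6% rose. The 3 genes had 0, 50 and 2 counts in SI tuft cells and 11, 15 and 8 in SI epithelium. They passed the filter through their thymic counts, so nothing is read from these calls. Without SI epithelium library 2 the count that rose against SI tuft cells was 5. Amelx, the amelogenin gene, had 16.9, 2.81, 4.94 and 2.70 CPM in thymic tuft libraries 1 to 4, which was at least 272-fold more than in SI tuft cells, where it was at 0. Enam, the enamelin gene, had 5.16, 0, 0 and 5.27 CPM in thymic tuft libraries, and Ambn, the ameloblastin gene, had 0, 1.58, 2.07 and 0.0190 CPM. Amelx was highest in thymic library 1, Enam in libraries 1 and 4 and Ambn in libraries 2 and 3. Of the 9 genes of this family with at least 15 thymic counts, all 9 had over 50% in a single library. They lay between 0.135 and 9.02 CPM in thymic tuft cells. Over all protein-coding genes 77.6% did so at 0.1 to 1 CPM and 36.4% at 1 to 10 CPM.

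Lalba belongs to the lysozyme family by sequence. Of 8 lysozyme genes other than Lalba, 3 passed the filter, and 2 of these, Lyz2 and Lyzl4, rose against SI tuft cells. Over all genes 28.5% did. The count became 1 when any of 7 libraries was left out. Against SI epithelium 1 rose and 1 fell (median log2 fold change -0.61), beside 28.6% and 22.3% of all genes. Lyzl4 was at 0 in SI tuft cells (edgeR adjusted p = 0.0402) and had 85.1% of its thymic CPM in a single library. Lyz2 averaged 183 ± 19.0 CPM in thymic tuft cells, 8.07 ± 5.64 CPM in SI tuft cells and 3.98 ± 0.387 CPM in SI epithelium and rose against both (adjusted p = 1.78e-05 and 4.99e-06). It is abundant in macrophages. Markers of myeloid and dendritic cells summed to 68.4 to 99.2 CPM in thymic tuft libraries, 15.0 to 38.7 CPM in SI tuft cells and 17.5 to 25.2 CPM in SI epithelium, and their part in Lyz2 was not tested. Lyz1, a Paneth cell gene, averaged 174 ± 56.2 CPM in thymic tuft cells, against 135 ± 92.5 CPM in SI tuft cells and 5470 ± 523 CPM in SI epithelium.

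Transcripts were followed for 25 genes of the signalling that switches on milk protein genes in the mammary gland, of which 24 were tested. Signalling itself was not measured. Against SI tuft cells 16 rose and 4 fell in thymic tuft cells (median log2 fold change 2.09), and against SI epithelium 15 rose and 3 fell (median 1.27). Over all genes 28.5% rose and 23.1% fell against SI tuft cells, and 28.6% and 22.3% against SI epithelium. Of the 24, 2 were at 0 in SI tuft cells (Pgr and Tnfsf11) and could not be called lower there. Esr1, Gata3 and Elf5 had 2, 11 and 21 counts over the SI tuft libraries, which left little room for a lower thymic level. Prlr fell, whereas Stat5a and Stat5b rose. Prlr, the prolactin receptor gene, had 4.92, 7.09, 7.54 and 10.5 CPM in thymic tuft libraries 1 to 4, against 149, 107 and 101 CPM in SI tuft libraries and 159, 137 and 140 CPM in SI epithelium. Its thymic libraries lay below all intestinal ones, with log2 fold changes of -3.99 (SE 0.25, adjusted p = 1.26e-07) against SI tuft cells and -4.27 (SE 0.25, adjusted p = 8.65e-08) against SI epithelium.

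Stat5a, the transducer of the prolactin receptor, had 68.3, 66.3, 81.9 and 65.2 CPM in thymic tuft libraries, against 7.70, 7.24 and 6.57 CPM in SI tuft libraries and 5.59, 8.85 and 8.12 CPM in SI epithelium. It rose by a log2 fold change of 3.30 (SE 0.24, adjusted p = 4.04e-07) against SI tuft cells and 3.23 (SE 0.24, adjusted p = 4.72e-07) against SI epithelium. It overlaps Stat3 in the annotation, so some reads could belong to either. Stat5b averaged 39.5 ± 9.69 CPM in thymic tuft cells, 8.71 ± 0.394 CPM in SI tuft cells and 10.7 ± 3.87 CPM in SI epithelium and rose against both (adjusted p = 0.000158 and 0.000425). Jak2, the kinase gene between receptor and STAT5, averaged 121 ± 18.0 CPM in thymic tuft cells, 115 ± 17.2 CPM in SI tuft cells and 83.5 ± 4.38 CPM in SI epithelium. It was not called against SI tuft cells (log2 fold change 0.08, adjusted p = 0.720) and rose against SI epithelium (0.53, adjusted p = 0.0173).

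Cish, a STAT5 target that dampens the receptor's signal, averaged 79.3 ± 13.7 CPM in thymic tuft cells, 2.81 ± 1.67 CPM in SI tuft cells and 6.37 ± 0.374 CPM in SI epithelium. Its log2 fold changes were 4.82 (adjusted p = 1.17e-06) and 3.64 (adjusted p = 7.09e-06). Socs1, another inhibitor, averaged 14.7 ± 2.06 CPM in thymic tuft cells and rose as well (adjusted p = 0.000182 against SI tuft cells and 1.75e-05 against SI epithelium). Socs2, also a STAT5 target, was not called: it had 37.6, 20.3, 47.4 and 20.8 CPM in thymic tuft libraries, against a mean of 27.1 ± 2.82 CPM in SI tuft cells and 46.3 ± 3.03 CPM in SI epithelium (SD, n = 3 each). Of these STAT5 targets Cish passed the test and Socs2 did not, and its thymic libraries overlapped with those of both intestinal groups.

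Elf5, a transcription factor gene of the milk-secreting lineage, had 5.71, 7.93, 7.51 and 0.342 CPM in thymic tuft libraries 1 to 4, against 0.109 to 0.264 CPM in SI tuft cells and 0.0303 to 0.149 CPM in SI epithelium. It rose against SI tuft cells (log2 fold change 4.87, SE 1.13, adjusted p = 0.00352) and against SI epithelium (5.77, SE 1.19, adjusted p = 0.00161). Thymic library 4 had little Elf5, and its Csn2 level was 372 CPM, close to that of the other libraries. This is 1 library, and a link between Elf5 and Csn2 was not tested. Nr3c1, the glucocorticoid receptor gene, averaged 28.8 ± 6.37 CPM in thymic tuft cells, 69.6 ± 5.37 CPM in SI tuft cells and 117 ± 6.37 CPM in SI epithelium. It fell against both, by log2 fold changes of -1.27 (adjusted p = 0.000166) and -2.02 (adjusted p = 3.89e-06). Ghr, the growth hormone receptor gene, averaged 47.3 ± 3.69 CPM in thymic tuft cells, 6.72 ± 1.54 CPM in SI tuft cells and 26.8 ± 1.91 CPM in SI epithelium and rose against both (adjusted p = 1.16e-06 and 0.00729).

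**Figure D5:**
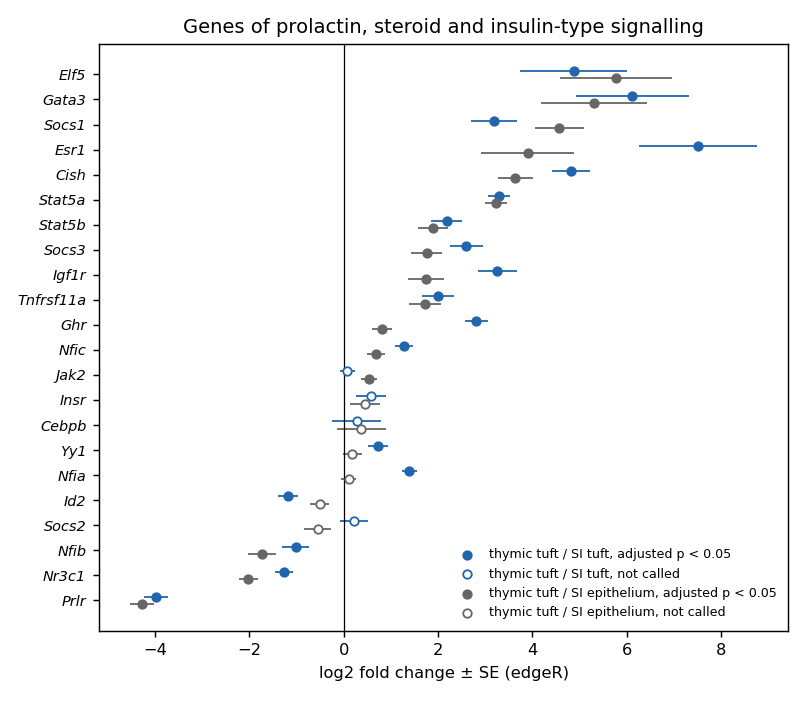
Log2 fold change ± SE of 22 genes of prolactin, steroid and insulin-type signalling, in thymic tuft against SI tuft cells (blue) and against SI epithelium (grey); filled points have an edgeR adjusted p below 0.05. Stat5a, Stat5b, Cish and Elf5 lie to the right of 0 in both comparisons and Prlr and Nr3c1 to the left; Pgr and Tnfsf11, which are at 0 in SI tuft cells, are not drawn.

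The plot of signalling genes also places the steroid receptor Esr1 and the lineage factor Gata3 to the right. Esr1 averaged 3.57 ± 1.65 CPM in thymic tuft cells, against 0.0169 ± 0.0147 CPM in SI tuft cells and 0.237 ± 0.220 CPM in SI epithelium (adjusted p = 0.000365 and 0.00627). Pgr, the progesterone receptor gene, averaged 1.62 ± 1.08 CPM in thymic tuft cells and was at 0 in SI tuft cells, a difference of at least 61.9-fold. In SI tuft cells against SI epithelium 0 of the 24 genes rose and 8 fell, where 10.9% of all genes rose and 11.4% fell. Over the alternatives tried the first count was 0 to 2 and the second 2 to 9, with 2 to 4 when any 1 intestinal library was left out and 4 with the replicate block.

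Of 13 genes of enzymes that make lactose or modify caseins 2 rose and 6 fell in thymic against SI tuft cells (median log2 fold change -0.38), and 4 rose and 5 fell against SI epithelium (median -0.23), beside 28.5% and 23.1%, and 28.6% and 22.3%, over all genes. Without SI tuft library 2 the first pair of counts was 1 and 3, and without SI tuft library 3, or with DESeq2 size factors, the count that fell was 3. Fam20c, the kinase gene of secreted proteins including casein, averaged 18.8 ± 9.58 CPM in thymic tuft cells, 1.24 ± 1.21 CPM in SI tuft cells and 3.72 ± 0.722 CPM in SI epithelium. It rose against SI tuft cells (log2 fold change 3.93, adjusted p = 0.00109) and against SI epithelium (2.34, adjusted p = 0.0148), the second of which had an adjusted p of 0.0647 without SI epithelium library 1 and 0.0561 without library 3.

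Slc35a2, which carries UDP-galactose into the Golgi, fell to 15.4 ± 8.17 CPM in thymic tuft cells, against 82.0 ± 5.88 CPM in SI tuft cells (adjusted p = 0.000664) and 44.5 ± 6.61 CPM in SI epithelium (adjusted p = 0.0106). Gcnt1, a glycosyltransferase gene of O-linked sugars, averaged 31.1 ± 6.69 CPM in thymic tuft cells, 72.8 ± 10.1 CPM in SI tuft cells and 1.21 ± 0.362 CPM in SI epithelium, so that both tuft groups lay above SI epithelium. Against SI epithelium Hk1 rose (log2 fold change 2.45, adjusted p = 6.47e-06) and Hk2 fell (-2.38, adjusted p = 8.39e-05), and against SI tuft cells neither hexokinase gene was called (adjusted p = 0.692 and 0.154). Hk1 averaged 89.9 ± 17.7 CPM in thymic tuft cells, 97.6 ± 26.5 CPM in SI tuft cells and 16.5 ± 3.42 CPM in SI epithelium. Hk2 averaged 21.8 ± 6.90 CPM in thymic tuft cells, 14.5 ± 7.21 CPM in SI tuft cells and 114 ± 20.7 CPM in SI epithelium.

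Of 12 tested regulators of tissue-restricted antigens, 4 rose and 5 fell in thymic against SI tuft cells (median log2 fold change -0.08), and 5 rose and 3 fell against SI epithelium (median 0.27). Over all genes 28.5% rose and 23.1% fell in the first comparison and 28.6% and 22.3% in the second, so nothing particular is read from these counts. The first median was 0.17 with DESeq2 size factors, so its sign depended on the scaling. Aire had 158 to 258 CPM in thymic tuft libraries, with a mean of 225 ± 45.2 CPM (SD, n = 4), against 0.153 ± 0.0861 CPM in SI tuft cells and 1.46 ± 0.445 CPM in SI epithelium. It rose by log2 fold changes of 10.48 (adjusted p = 7.14e-09) and 7.27 (adjusted p = 2.24e-08), and it overlaps Dnmt3l in the annotation. Fezf2 averaged 285 ± 30.9 CPM in thymic tuft cells, 0.0451 ± 0.0568 CPM in SI tuft cells and 1.54 ± 0.141 CPM in SI epithelium (adjusted p = 2.73e-09 and 7.45e-09). Sirt1, a deacetylase gene acting with Aire, averaged 152 ± 51.9 CPM in thymic tuft cells, 26.5 ± 4.07 CPM in SI tuft cells and 34.1 ± 4.73 CPM in SI epithelium and rose against both. Hipk2, a kinase gene, fell to 212 ± 54.8 CPM in thymic tuft cells, against 694 ± 88.8 CPM in SI tuft cells and 360 ± 42.8 CPM in SI epithelium.

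Other tissue-restricted antigens give the casein levels a scale. Of 29 tested genes of pancreas, liver, muscle, nerve and other organs, 18 rose and 3 fell in thymic against SI tuft cells (median log2 fold change 4.55), and 17 rose and 6 fell against SI epithelium (median 4.72), beside 28.5% and 23.1%, and 28.6% and 22.3%, over all genes. The count of 17 became 11 without SI epithelium library 3. Of the 29, 12 had a group at 0 in thymic against SI tuft cells, so they could differ in 1 direction only. The counts are therefore not read as an excess over all genes. Fabp9, a testis fatty acid binding protein gene, averaged 23.4 ± 5.06 CPM in thymic tuft cells, against 0 in SI tuft cells and 0.173 ± 0.0525 CPM in SI epithelium, a difference of at least 891-fold between the tuft groups. Chrna1, the muscle acetylcholine receptor gene, averaged 13.2 ± 7.89 CPM in thymic tuft cells, 0.0839 ± 0.0851 CPM in SI tuft cells and 2.03 ± 0.609 CPM in SI epithelium and rose against both (adjusted p = 5.55e-05 and 0.00851). Some antigens that the intestine itself expresses were lower in thymic tuft cells. Apob, the apolipoprotein gene of chylomicrons, averaged 43.1 ± 13.4 CPM in thymic tuft cells, against 2613 ± 414 CPM in SI tuft cells and 1697 ± 136 CPM in SI epithelium, and fell against both (adjusted p = 9.53e-09 and 1.60e-08). Sst, the somatostatin gene, averaged 49.2 ± 28.2 CPM in thymic tuft cells, 86.4 ± 108 CPM in SI tuft cells and 1632 ± 473 CPM in SI epithelium. It fell against SI epithelium (adjusted p = 0.00100) and was not called against SI tuft cells (adjusted p = 0.456).

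Markers of mammary epithelium, a list that shares its keratins with thymic medullary epithelium, were 8 higher and 3 lower of 11 tested in thymic against SI tuft cells, where 28.5% and 23.1% of all genes were. Krt14 had 0 counts in SI tuft cells, and Aldh1a3, Acta2, Trp63, Krt5 and Elf5 had 11, 15, 15, 18 and 21. That left little room for a lower thymic level, so the counts are not read as an excess over all genes. Krt5 averaged 636 ± 54.8 CPM in thymic tuft cells, against 0.147 ± 0.209 CPM in SI tuft cells and 3.26 ± 0.605 CPM in SI epithelium. Krt14 averaged 78.3 ± 16.3 CPM and Trp63 118 ± 13.7 CPM in thymic tuft cells, and both were below 1 CPM in each intestinal group. Krt18, a keratin of secretory mammary cells and of the intestine, averaged 1308 ± 216 CPM in thymic tuft cells, 15034 ± 836 CPM in SI tuft cells and 865 ± 119 CPM in SI epithelium.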

How the data were processed

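Poly(A) RNA of sorted cells from 1 mouse per library was amplified with NuGEN Ovation V2 and made into libraries with Nextera XT, per the labels' protocols; neither step marks strand. The series began with 4 libraries per group, per its design text, and the submitters dropped 1 from each intestinal group for failing quality control. The authors deposited raw counts per gene. STAR, DESeq2 and the build GRCm38 are named in the submitters' processing notes, and versions are not given in the sources used here. Symbols, coordinates and transcript lengths (longest basic protein-coding transcript) came from GENCODE M21, which holds 42548 of the 43432 identifiers.

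Libraries held 38.7 to 73.6 × 1e6 counts, and 3 counts equal 0.0433 to 0.0817 TMM-scaled CPM. With edgeR 4.0.16 (R 4.3.3), genes were kept by filterByExpr (minimum count 10, total 15), which left 19281. Libraries were scaled by TMM (factors 0.661 to 1.43) and a quasi-likelihood model with 1 mean per group was fitted to all 10 libraries. Calls were made at a Benjamini-Hochberg adjusted p below 0.05 over all genes tested. The fit was tested on simulated data. Replicates are separate animals, and nothing says that equal replicate numbers mark a shared day. Same-numbered libraries did not deviate together (correlations of deviations from the group means -0.04 to 0.10), so no block was used.

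Libraries were paired across organs by non-negative least squares over 281 thymus-restricted genes, milk protein genes left out. The size of the share was then taken as a median ratio, chosen after the least-squares shares were seen to spread over several libraries. Ratios and lower bounds used pooled counts over pooled effective library sizes. Alternatives were DESeq2 size factors, no filter, the DESeq2 1.42.0 Wald test, a fit of only the groups compared, the replicate block, subtraction of the share and removal of each library.

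The genes followed and the gene lists were chosen with earlier results of these data known. Named genes were all 7 milk protein genes, protein-coding genes within 300 kb of the caseins, and 8 fixed genes (Prlr, Stat5a, Stat5b, Elf5, Nr3c1, Cish, Socs2 and Aire). To these were added up to 3 called members per list and comparison with at least 10 CPM and libraries that did not overlap, and the 3 genes most correlated with Csn2. Not all genes that the rule gives are described. Xdh, Pigr, Btn1a1, Wfdc3, Amelx, Enam, Ambn, Spp1, Sparcl1, Lyzl4, Esr1, Gata3, Pgr, Tnfsf11 and Jak2 were named after their values were seen, as were the antisense genes at the casein locus.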

Additional observations from a re-analysis of the deposited data

Results flagged for a closer look

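For 48 genes named at the casein locus, in the lists or always, with at least 15 thymic counts, the 4 thymic tuft libraries were searched for one that stands apart, by the gap to its nearest neighbour over the whole range (Dixon's 95% criterion). Chance flags about 1 group in 20 where values are normally distributed. CPM values near 0 need not be, so the 6 genes that stood out are not set against that rate.

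Among the milk protein genes Csn3 (ratio 0.864) stood out by 12.0 CPM in thymic library 2, against 0 to 1.63 CPM in the others. Wap (ratio 1) was at 0.931 CPM in thymic library 4 and 0 in the other 3. At the casein locus, Odam (ratio 0.903) was at 0.452 CPM and Sult1e1 (ratio 0.844) at 1.05 CPM in thymic library 2, the library that also held the most Csn3. Their other libraries lay at 0.0145 to 0.0570 CPM and at 0 to 0.164 CPM.

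Muc15 (ratio 0.842) reached 60.7 CPM in its highest thymic library, against 30.9 to 35.6 CPM in the others. Fezf2 (ratio 0.892) was at 239 CPM in its lowest thymic library, against 297 to 304 CPM in the others.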

How the results depend on the processing

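The mean Csn2 level of thymic tuft cells was 414 CPM with TMM and 567 CPM by total counts, and 374 to 416 CPM without any 1 library. Removal of 1 library gave thymic means of 4.18 to 6.97 CPM for Csn1s1, 3.32 to 7.36 CPM for Csn1s2a, 0.636 to 4.51 CPM for Csn3, 0.0436 to 0.215 CPM for Csn1s2b and 0 to 0.301 CPM for Wap. The share subtracted, SI epithelium means were 0 CPM for Csn2 and 0.0170 CPM for Csn1s1. In SI tuft against SI epithelium, genes called higher and lower were 3475 and 3513 with only those groups in the fit, against 2101 and 2199 in the fit of all groups, and 1462 to 2516 and 1426 to 2754 without 1 library, the lowest count of genes called lower being without SI epithelium library 1. In the same comparison 11 members of the 8 lists were called higher (18 with only the groups compared) and 32 lower (21 with the replicate block, 20 with the share subtracted and 20 to 36 without 1 library). In the thymic comparisons the replicate block changed no count of calls by over 1.5 times (4767 higher and 4172 lower against SI tuft cells), apart from the counts in the lysozyme list and in the list of lactose synthesis and casein processing, each of which had 1 higher against SI tuft cells. Of 1040 single-gene results under an alternative, 1025 kept their direction and side of the threshold. Gcg against SI tuft cells lost its call under 11 alternatives and Fam20c against SI epithelium under 2. Without thymic library 3 the log2 fold change of Socs2 was -0.028 against SI tuft cells, where it was 0.22 with all libraries and at most 0.40 without 1, and it was called against SI epithelium (-0.80). The cause of these changes was not tested. Caseins below about 0.08 CPM in a library cannot be told from absence at this depth.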
